A study of Zea mays with 6 samples.

Results

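Chromosome 10 of maize was followed from end to end in developing leaves of the hda108 mutant and of wild type. Its members were the genes of the deposited table whose locus lies on chromosome 10, whose values were above 0 in both genotypes and whose mean was at least 1 FPKM (sequenced fragments, corrected for the length of the transcript and for the size of the library). They were 1370 of the 2706 genes listed for this chromosome, and of the 21057 genes that met the same conditions in the whole table of 39604. Of the 1336 genes of chromosome 10 left out, 559 were listed at 0 in both genotypes, 129 in wild type alone and 69 in hda108 alone, and 579 had a mean below 1 FPKM. The 3 genes just inside that limit had means of 1.004, 1.010 and 1.011 FPKM, and the 3 just outside 0.992, 0.996 and 0.999 FPKM.

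Total RNA was depleted of ribosomal RNA and sequenced, with strand kept, from the 11th leaf, still wrapped in the older leaves, of greenhouse plants at vegetative stage 8. The labels describe 3 libraries of wild type and 3 of plants homozygous for hda108. The table gives 1 value of the authors per gene and genotype, so the spread between plants cannot be seen, and neither p-values nor errors accompany the differences. The inbred background of the plants, the nature of the hda108 allele, how many plants went into a library and the sequencing depth are not given in the sources used here.

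The product of HDA108 is a histone deacetylase, which takes acetyl groups off histone tails. Acetylated histones generally mark transcribed chromatin. Maize chromosomes carry most genes toward their ends, while the middle, around the centromere, is poor in genes and rich in transposable elements. Genes of a family are often found next to each other after tandem duplication, among them terpene synthases, which make volatile defence compounds.

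HDA108 itself lies on chromosome 4 (GRMZM2G136067) and had 10.9 FPKM in wild type against 3.06 in hda108. On chromosome 10, lhcb6, which encodes a light-harvesting antenna protein of photosystem II, was abundant in both pools. It had 476 FPKM in wild type against 421 in hda108. In whole tissue, fewer cells of a type and less RNA per cell cannot be told apart.

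Differences are given as log2 of FPKM + 0.5, hda108 minus wild type, and a gene was counted as past 2-fold when that difference reached 1 in either direction. For genes with low values this scale makes differences smaller than the ratio of the FPKM. The genes were selected on their position and on both FPKM values, and the chromosome was chosen with its differences known, so the counts below describe the values and test nothing.

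Chromosome 10 held 32 genes past 2-fold, 2.34% of its compared genes, against 2.31% of all compared genes and 2.01% of the 17433 on chromosomes other than 4 and 10. That share is near the background. Of the 32 genes, 19 were higher in hda108 (1.39%, against 1.37% on those other chromosomes) and 13 were lower (0.949%, against 0.642%). Higher genes thus made up 59.4% of the genes past 2-fold on chromosome 10 and 68.1% elsewhere. Among the 8 other chromosomes the share past 2-fold ranged from 1.74% to 2.43%, and 1 of them, chromosome 6, lay above chromosome 10. Past 1.5-fold were 111 genes of chromosome 10 (8.10%), 67 higher and 44 lower, against 8.43% on the other chromosomes. The median difference was 0.05 on chromosome 10 and 0.06 on the others, and its interquartile range was 0.33 on the log2 scale, against 0.35.

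**Figure D1:**
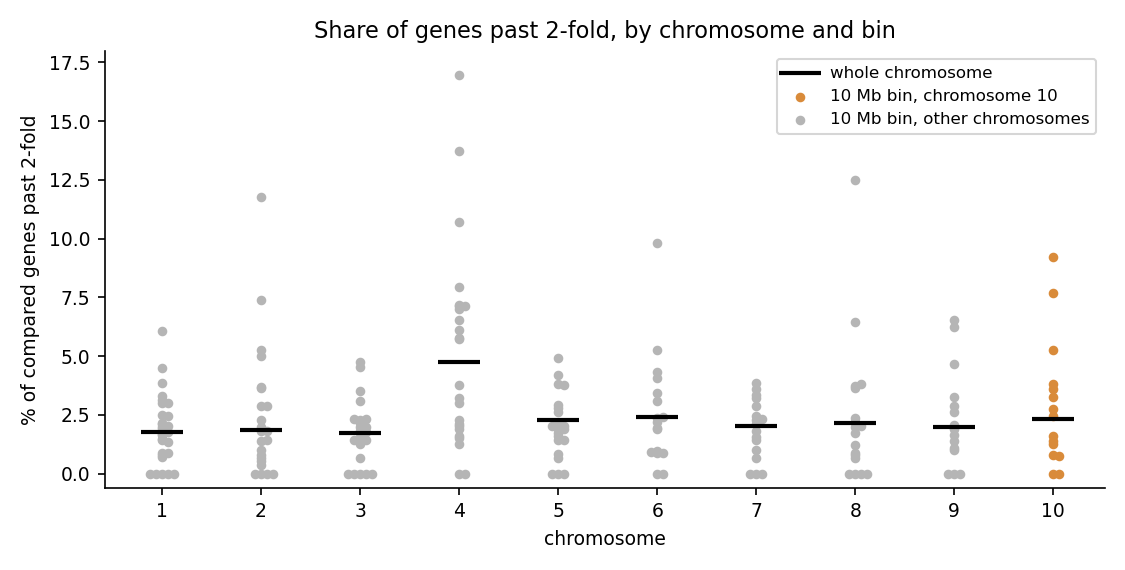
Percentage of compared genes past 2-fold (vertical axis) on each maize chromosome (horizontal axis); black bars are whole chromosomes and points are 10 Mb bins with at least 20 compared genes. Chromosome 10 as a whole, at 2.34%, sits among the chromosomes other than 4, while its bins spread from 0 to 9.23%.

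Along the chromosome the genes past 2-fold were uneven in number and in direction. In the first 50 Mb, 6 of 350 compared genes were past 2-fold (1.71%), 1 higher and 5 lower. Between 50 and 100 Mb there were 16 of 313 (5.11%), 11 higher and 5 lower. In the last 50 Mb there were 10 of 707 (1.41%), 7 higher and 3 lower. Among genes past 2-fold, the first block therefore held mostly lower ones and the other blocks mostly higher ones. With a pseudocount of 1, GRMZM2G181546 (-0.997), AC198699.3_FG004 (-0.93), GRMZM2G006287 (-0.85) and GRMZM2G037831 (0.95) of the first block fell inside the limit. At 1.5-fold the 5 bins of 10 Mb in that block held 6, 6, 1, 1 and 1 higher genes against 8, 7, 2, 1 and 0 lower. The directions were thus closer to balance at that limit. The medians of all compared genes in these blocks were 0.02, 0.06 and 0.05, so the bulk of genes differed little between them.

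In 10 Mb bins, the highest share was that between 70 and 80 Mb, where 6 of 65 compared genes were past 2-fold (9.23%), 4 higher and 2 lower. It was followed by the bin from 50 to 60 Mb with 2 of 26 (7.69%) and that from 60 to 70 Mb with 3 of 57 (5.26%). The bins from 30 to 40 Mb and from 40 to 50 Mb, with 37 and 22 compared genes, held 0. At the far end, between 140 and 150 Mb, where genes were densest, 2 of 261 were past 2-fold (0.766%). The bin from 10 to 20 Mb held 3 lower genes and 0 higher among 83, and the bins from 110 to 140 Mb held 3, 1 and 2 higher genes and 0 lower among 79, 126 and 159. At 1.5-fold the same bin from 70 to 80 Mb was highest, with 13 of 65 genes, and the bin from 10 to 20 Mb came next with 13 of 83 (15.7%). There the genes were balanced, with 6 higher and 7 lower.

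**Figure D2:**
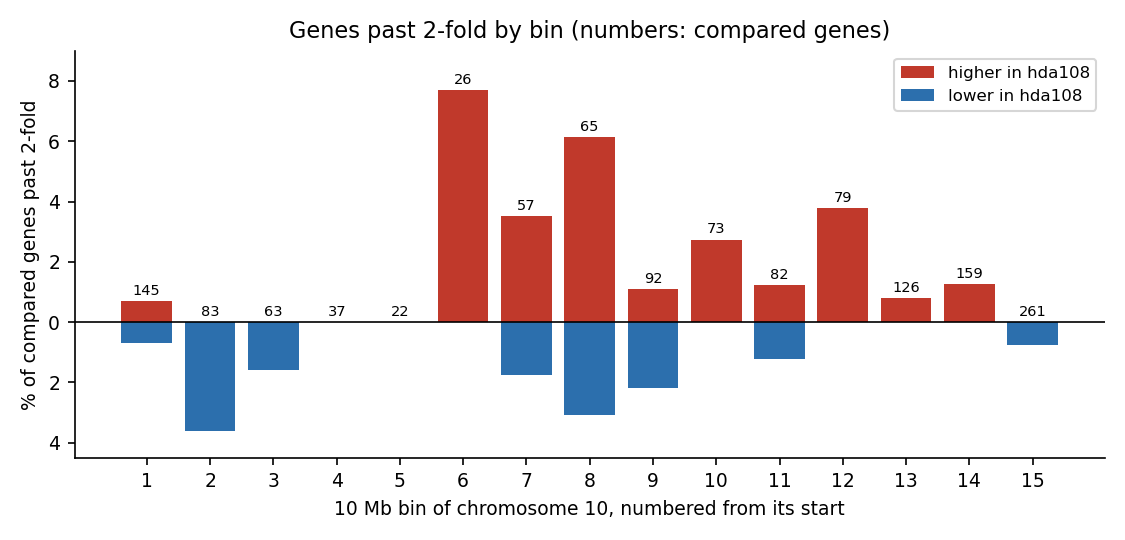
Percentage of compared genes at least 2-fold higher (bars upward) or lower (bars downward) in hda108, in 10 Mb bins numbered from the start of chromosome 10; the number over each bar is the number of compared genes. Bin 8, from 70 to 80 Mb, has 4 higher and 2 lower genes, and bins 4 and 5 have 0.

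Bin medians of the difference ran from -0.01 in the first 10 Mb to 0.13 between 90 and 100 Mb. On the 8 other chromosomes, 166 bins with at least 20 compared genes ran from -0.09 to 0.24, so no bin of chromosome 10 lay outside their range. The share of the bin from 70 to 80 Mb was not beyond the other chromosomes either, where 3 of the 166 bins had a share at least as high, up to 12.5%. These were smaller bins, with 4 of 34 genes past 2-fold on chromosome 2, 5 of 51 on chromosome 6 and 3 of 24 on chromosome 8. Bins with 0 genes past 2-fold were 2 of 15 on chromosome 10 and 29 of 166 elsewhere. In windows of 100 successive compared genes, the highest share was 9% on chromosome 10, from 55997693 to 74492309. On the other 8 chromosomes the highest window held 4% to 8%, and on chromosome 4 it held 19%. In windows of 200 genes chromosome 10 reached 6.5% and those 8 at most 5.5%. In windows of 400 genes these values were 4.75% and 4.25%. In windows of 50 genes chromosomes 1 and 5 reached the 12% of chromosome 10.

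In both sets the share past 2-fold was higher in bins with fewer compared genes. In bins with at least 20 but fewer than 75 compared genes, 14 of 343 genes of chromosome 10 were past 2-fold (4.08%), against 18 of 1027 (1.75%) in denser bins. On the other chromosomes the same shares were 2.57% and 1.90%. The sparser class of chromosome 10 includes the bin from 70 to 80 Mb, with 6 of 65, and also the 2 bins with 0. The part of density in the pattern was not tested.

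**Figure D3:**
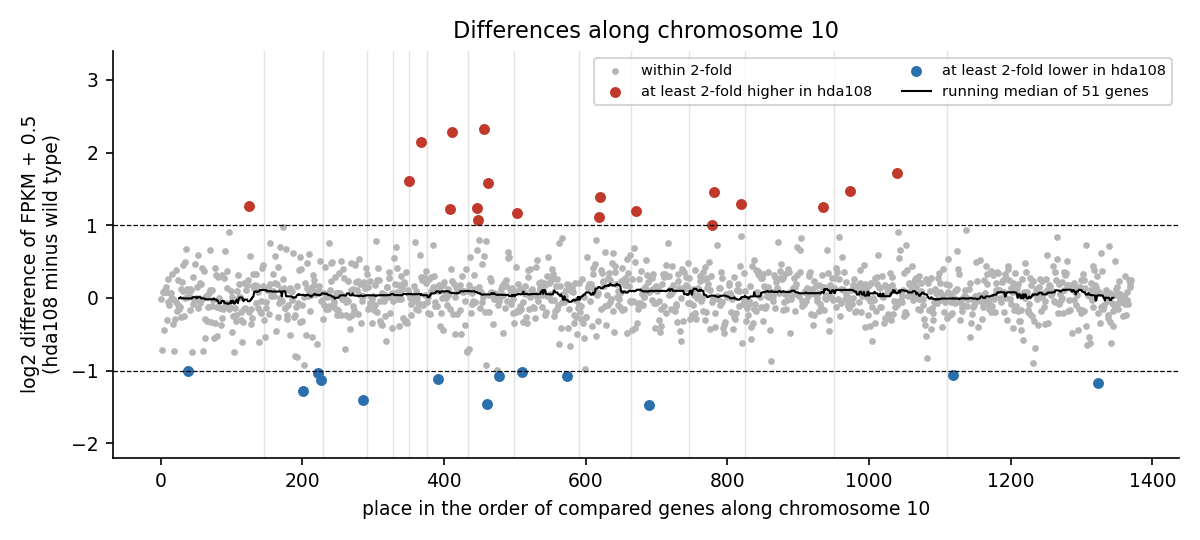
Log2 difference of FPKM + 0.5 (vertical axis, hda108 minus wild type) for the 1370 compared genes in their order along chromosome 10 (horizontal axis); grey vertical lines separate 10 Mb bins and the black line is the running median of 51 genes. Of the 19 higher genes (red) 18 lie beyond the first 50 Mb, and 350 of all 1370 compared genes lie within it. Of the 13 lower genes (blue) 5 lie in the first 3 bins, which hold 145, 83 and 63 compared genes. The running median stays between -0.08 and 0.20.

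The 5 lower genes of the first 50 Mb included pOMT1 (GRMZM2G383088, 28396446 to 28402412), named as an O-methyltransferase gene, a class of enzymes that adds methyl groups to phenolic and other compounds. It had 18.1 FPKM in wild type against 6.52 in hda108, a difference of -1.41. Its locus spans 5967 bp and overlaps no other listed gene. The most abundant lower gene of the whole chromosome, GRMZM2G181546 near its start, had 103 FPKM in wild type against 51.2 in hda108. Its difference, -1.004, stood at the 2-fold limit, and it fell inside that limit with a pseudocount of 1.

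The others in this block were weaker transcripts. AC198699.3_FG004 had 5.72 FPKM in wild type against 2.53 in hda108. GRMZM5G838054, a locus of 286 bp, had 3.63 FPKM in wild type against 1.197 in hda108, and GRMZM2G006287 had 1.75 against 0.524. The 1 gene that went the other way was GRMZM2G037831, with 0.501 FPKM in wild type against 1.90 in hda108. In that order along the chromosome, AC198699.3_FG004 followed directly on GRMZM2G068316, which had 97.1 FPKM in wild type against 62.5 in hda108 (-0.63), so that this pair was lower together.

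From 50 to 70 Mb, 5 genes were past 2-fold, 4 of them upward. The terpene synthase gene tps23 (GRMZM2G127336, 57658110 to 57664789), whose enzyme makes the volatile sesquiterpene caryophyllene, had 0.989 FPKM in wild type against 6.10 in hda108, a difference of 2.15. GRMZM2G020054 (65437298 to 65438594) had 4.78 FPKM in wild type against 25.1 in hda108, a difference of 2.28. Its neighbour past 2-fold, GRMZM2G539054, lies 3 places before it and had 3.79 and 9.47 FPKM. GRMZM2G145909 had 1.03 FPKM in wild type against 4.18 in hda108. In the midst of these, GRMZM2G151567 (63043039 to 63050210) was lower, at 13.1 FPKM in wild type against 5.77 in hda108. It is one of the longer loci past 2-fold, with 7172 bp.

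The stretch from 72306291 to 74492309 was the 1 place on chromosome 10 where at least 3 genes past 2-fold followed each other within 10 places of the gene order. It held 5 such genes among 16 compared genes, 4 higher and 1 lower. GRMZM2G407495 (73295082 to 73295663) had the largest difference on the chromosome, with 2.48 FPKM in wild type against 14.5 in hda108, a 5.02-fold difference on the scale of FPKM + 0.5. With a pseudocount of 0.1, tps23 (2.51) passed it (2.50). GRMZM2G122941 had 3.56 FPKM in wild type against 9.04 in hda108. GRMZM2G141152 had 5.41 and 11.9 FPKM, but it shares its locus entry with GRMZM5G850027, which had 2.34 and 2.66 FPKM, so its value is uncertain. Directly before them, GRMZM2G072621 had 4.47 FPKM in wild type against 7.39 in hda108, and the 3 genes from it to GRMZM2G141152 formed the longest run of adjacent genes past 1.5-fold in 1 direction on this chromosome.

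The loci with terpene synthase names at the end of this stretch differed in opposite directions. In order along the chromosome they are the genes named TPS9, TPS4, TPS5 and tps10, of which TPS5 (GRMZM2G074309) and tps10 (GRMZM2G179092) are neighbours among the compared genes, 237 kb apart. TPS9 (GRMZM2G465812) had 8.14 FPKM in wild type against 7.04 in hda108, a difference of -0.20. TPS4 (GRMZM2G117319) had 3.55 FPKM in wild type against 1.63 in hda108, a difference of -0.93. TPS5 had 3.93 FPKM in wild type against 1.11 in hda108, a difference of -1.46. The direction changed at tps10, whose enzyme makes the herbivore-induced sesquiterpenes farnesene and bergamotene, with 0.291 FPKM in wild type against 1.85 in hda108, a difference of 1.57. The short locus GRMZM2G176355, between TPS4 and TPS5, was also higher, at 1.72 FPKM in wild type against 3.33 in hda108.

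The RefSeq names of TPS4 and TPS5 overlap, since both entries carry TPS5 among their synonyms. Reads of such similar genes can be divided between them in ways that the sources used here do not state, so the separate values of TPS4 and TPS5 are uncertain. The name TPS9 is also borne by loci elsewhere in the genome, and whether GRMZM2G465812 encodes a terpene synthase was not checked. Over the 5 compared entries of chromosome 10 with terpene synthase symbols, tps23 included, 3 were past 2-fold. The median of all 5, -0.20, was the value of TPS9 itself. The others were TPS4 and TPS5 below 0 and tps10 and tps23 above 0, so this median gives the family no direction. The share past 2-fold over all compared genes of the chromosome was 2.34%. In wild type tps10 and tps23 were below 1 FPKM (0.291 and 0.989), so both met the limit on the mean through hda108. The 10 terpene synthase entries on the other chromosomes had 2 past 2-fold, beside 2.01% of all genes there, and a median of -0.12. Several of these symbols are shared by unrelated genes.

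**Figure D4:**
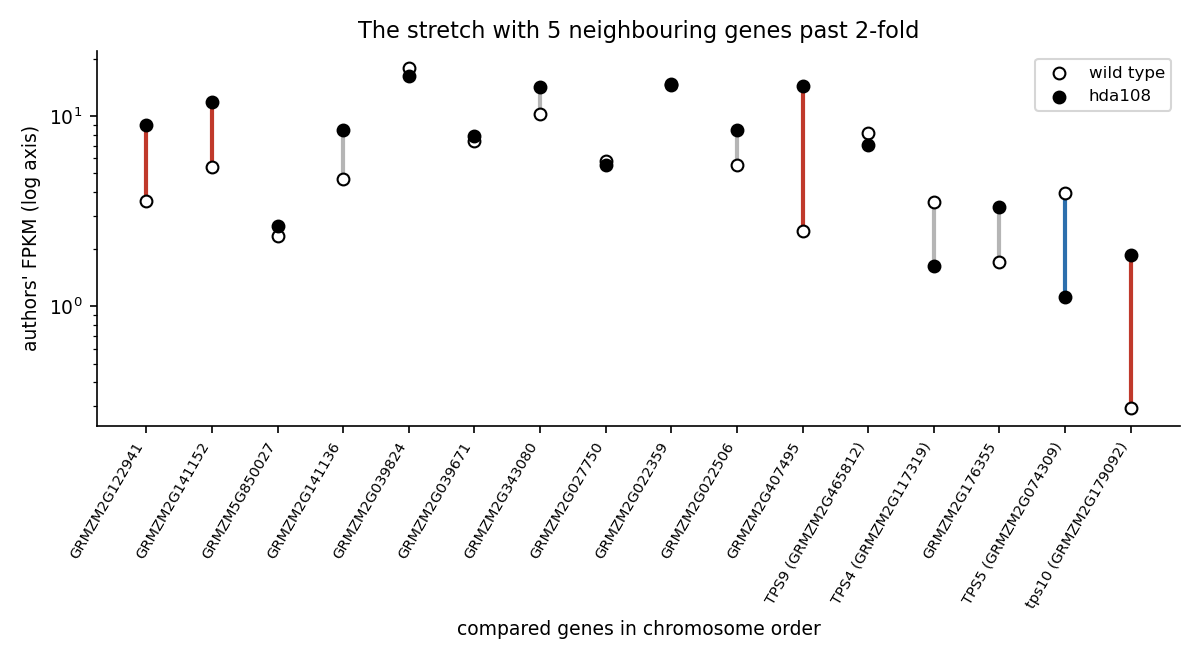
The authors' FPKM (vertical axis, logarithmic) in wild type (open circles) and hda108 (filled circles) for the 16 compared genes of the stretch in chromosome order (horizontal axis); red lines join values at least 2-fold higher in hda108, blue at least 2-fold lower, grey within 2-fold. GRMZM2G407495 moves from 2.48 to 14.5 FPKM, and TPS5 and tps10, next to each other among the compared genes, go opposite ways.

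The other 11 genes of the stretch were not past 2-fold. GRMZM2G141136, at 4.69 FPKM in wild type against 8.52 in hda108 (0.80), and GRMZM2G022506, at 5.53 and 8.46 FPKM (0.57), were the next highest beside GRMZM2G176355. GRMZM2G022359, with 14.6 FPKM in wild type against 14.7 in hda108, lies next to GRMZM2G022506 and had a difference of 0.01. Between GRMZM2G141152 and GRMZM2G407495, 8 successive genes were not past 2-fold.

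Beyond the stretch, bHLH116 (GRMZM2G042895, 76600001 to 76602213), a gene of the basic helix-loop-helix transcription factor family, had 11.3 FPKM in wild type against 5.14 in hda108, a difference of -1.07. The gene GRMZM2G079759, 2 places before it, had 89.9 FPKM in wild type against 45.0 in hda108 and stood just outside the 2-fold limit at -0.99. Its neighbour GRMZM2G079908, among the most abundant transcripts of the chromosome, had 315 and 326 FPKM. The next gene after bHLH116 was rel2, which encodes a transcriptional corepressor of inflorescence development, with 29.1 FPKM in wild type against 28.3 in hda108. Levels about 2-fold apart thus lay next to levels that were nearly the same.

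Further along, lower genes were few. The gene named ae3 (GRMZM2G372553) had 5.19 FPKM in wild type against 2.32 in hda108, close to the 2-fold limit. GRMZM2G016346 had 7.48 and 3.31 FPKM. GRMZM2G009189 had 3.22 FPKM in wild type against 0.839 in hda108 and, with -1.47, the largest difference downward on the chromosome, close to that of TPS5; with a pseudocount of 1, pOMT1 (-1.34) passed it (-1.20). Near the far end, GRMZM2G142802 (147860136 to 147861369) had 16.4 FPKM in wild type against 6.99 in hda108, and GRMZM2G140924 had 1.58 and 0.496 FPKM. Between this last pair lay the longest series of compared genes with none past 2-fold, 203 genes from 140505133 to 147860136.

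The most abundant gene past 2-fold on chromosome 10 was GRMZM2G450512 (93390801 to 93391432), with 187 FPKM in wild type against 405 in hda108. The next compared gene, GRMZM2G061879, starts 18.6 kb after it and had 20.4 FPKM in wild type against 54.2 in hda108. With differences of 1.11 and 1.39, they were 1 of 3 adjacent pairs that were both past 2-fold, and the closest of these in base pairs. Of the 100 most abundant compared genes of the chromosome, 2 were past 2-fold, the other being GRMZM2G181546. The most abundant compared gene, by the mean of both values, GRMZM2G046284, had 660 FPKM in wild type against 455 in hda108 (-0.54).

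The remaining higher genes had low values. The gene ysl11 (GRMZM5G812538), of the yellow stripe-like family of transporters for chelated metals, is a short locus of 763 bp. It had 0.479 FPKM in wild type against 2.22 in hda108, a difference of 1.47, and met the limit on the mean through hda108. Its close neighbour ysl12 (GRMZM5G893444, 3948 bp), of the same family, had 9.33 FPKM in wild type against 10.1 in hda108, a difference of 0.11. Related genes that follow each other in the order of compared genes thus differed in this place too, as at TPS5 and tps10. GRMZM2G384763 and AC203341.3_FG003, which were not compared, lie between TPS5 and tps10. The short locus AC233979.1_FG007 had 3.94 FPKM in wild type against 14.2 in hda108, and the next, AC233979.1_FG008, had 3.01 and 6.10 FPKM. GRMZM2G014022 had 1.60 FPKM in wild type against 5.27 in hda108, and GRMZM2G095725, 3 places before it, had 3.06 and 6.65 FPKM. The other 4 were GRMZM2G077317 (0.829 and 2.48 FPKM), GRMZM2G347693 (1.29 and 3.59 FPKM), GRMZM2G424348 (0.871 and 2.86 FPKM) and GRMZM2G071264 (1.11 and 3.34 FPKM), wild type first. GRMZM2G071264 is listed with a span of 34524 bp, the longest of the 32.

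Local runs were about as frequent as elsewhere. Chromosome 10 had 7 runs of at least 2 adjacent compared genes past 1.5-fold in the same direction, 5 higher and 2 lower, or 5.11 per 1000 compared genes. The other 8 chromosomes had 100 runs, 5.74 per 1000, and chromosome 4 had 14.8 per 1000. Runs of 3 were 1 on chromosome 10 and 8 on the other chromosomes. Groups of at least 3 genes past 2-fold within 10 places of each other were 1 on chromosome 10, 16 on the 8 other chromosomes and 11 on chromosome 4. These groups held 5 of the 32 genes past 2-fold of chromosome 10 (15.6%) and 56 of the 351 elsewhere (16.0%). With 5 genes, the group at the terpene synthase loci was larger than those of the other 8 chromosomes except 1 of 6 genes on chromosome 5. Of the 32 genes, 15 had another gene past 2-fold within 10 places (46.9%), against 38.7% elsewhere.

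The signed differences of neighbouring genes showed little correlation. A correlation of their sizes regardless of direction was not computed. Across 1338 pairs of adjacent compared genes of chromosome 10 whose loci do not overlap, Spearman's rho between the differences was -0.02. It was between 0.02 and 0.09 on the other 8 chromosomes. These are correlations across genes of the same pair of pools, which are not independent replicates. The running median over 51 genes stayed between -0.08 and 0.20 along chromosome 10.

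Short and weakly expressed loci carried much of the count. The 32 genes past 2-fold had a median locus span of 1327 bp, against 3852.5 bp for the other compared genes of chromosome 10, and a median level of 3.94 FPKM against 8.07 FPKM. Elsewhere the medians were 1525 and 3830 bp. Loci under 400 bp were past 2-fold in 3 of 14 cases (21.4%), those from 400 to under 1000 bp in 9 of 87 (10.3%), those from 1000 to under 3000 bp in 9 of 419 (2.15%) and longer ones in 11 of 850 (1.29%). On the other chromosomes these shares were 15.2%, 7.99%, 2.98% and 0.681%. By level, 18 of 470 genes with a mean below 5 FPKM were past 2-fold (3.83%), 11 of 615 between 5 and 20 FPKM (1.79%) and 3 of 285 at 20 FPKM or more (1.05%). In 9 of the 32 genes the lower of both values was below 1 FPKM. The part of span and level in the differences was not tested. In loci of at least 1000 bp whose mean reached 5 FPKM, an alternative chosen after seeing the data, 8 of 849 were past 2-fold (0.942%, against 1.03% elsewhere), 3 higher and 5 lower, so the excess of higher genes did not hold there.

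**Figure D5:**
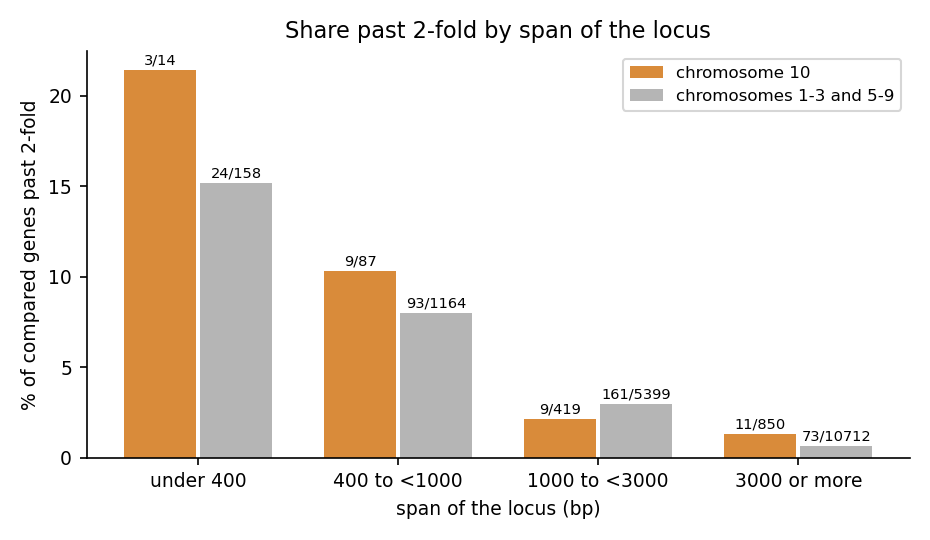
Percentage of compared genes past 2-fold (vertical axis) by the span of the locus (horizontal axis, base pairs) on chromosome 10 (orange) and on chromosomes 1 to 3 and 5 to 9 (grey); the numbers over the bars are genes past 2-fold over compared genes. Both sets decline with span, on chromosome 10 from 21.4% under 400 bp to 1.29% at 3000 bp or more.

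An informative name was available for 142 of the 1370 genes, of which 7 were past 2-fold (4.93%, beside 2.34% of all 1370). They were 3 higher genes (tps23, tps10 and ysl11) and 4 lower ones (pOMT1, TPS5, bHLH116 and ae3). Over all 142 the median difference was 0.01, with 72 above and 70 below 0; the median of all compared genes was 0.06. Past 1.5-fold were 111 of all 1370 genes, 32 of them past 2-fold. Another 8 of the 142 named genes differed by 1.5-fold to 2-fold, a similar share, and are named here after their values were seen. The 5 lower ones beside TPS4 were ACO (-0.98), GNAT11 (-0.86), D53 (-0.71), oy1 (-0.60) and glu2 (-0.59), and the higher ones were acs7 (0.73) and PSK4 (0.65). D53 bears the name of a repressor of strigolactone signalling known from rice, and PSK4 that of phytosulfokine, a small peptide hormone. ACO and acs7 carry the names of ACC oxidase and ACC synthase, the enzymes of ethylene synthesis. ACO (GRMZM2G072529) had 8.88 FPKM in wild type against 4.27 in hda108, and acs7 (GRMZM5G894619) had 4.37 and 7.58 FPKM, so that these differed in opposite directions.

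A list of 32 symbols was searched on chromosome 10, some of them general names such as sod, tub, act and gst. Of these symbols, 13 were found there and 8 could be compared. Their median was 0.23, against 0.05 for all compared genes of the chromosome. Of the 8, 6 were above and 2 below 0 (orp2 turned below 0 under each of 3 scalings). Past 2-fold were 2, tps10 and tps23, beside 2.34% of all compared genes there. The list was drawn up with earlier results of these data known. The gene oy1 (GRMZM2G419806), which encodes a subunit of magnesium chelatase in chlorophyll synthesis, had 51.2 FPKM in wild type against 33.5 in hda108. The beta-glucosidase genes, whose enzymes release defence compounds from their sugar conjugates, differed in direction. Of them glu1 (GRMZM2G016890) had 18.8 FPKM in wild type against 25.05 in hda108 and the more abundant glu2 (GRMZM2G008247) had 337 and 223 FPKM. The starch synthase gene du1 had 4.46 FPKM in wild type against 5.91 in hda108. The receptor kinase gene cr4, which acts in epidermal differentiation, had 8.36 and 8.94 FPKM, and the tryptophan synthase gene orp2 had 11.7 and 12.0 FPKM. The anthocyanin regulator r1 was listed at 0 in both genotypes, and zfl1, incw3, mgs1 and o7 were below the limit for comparison.

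Transcription factor genes recognised by family symbol numbered 11 on chromosome 10. Of these, 5 were above and 6 below 0, the median was -0.03, and bHLH116 was the 1 past 2-fold. The share over all compared genes of the chromosome was 2.34%. On the other chromosomes 10 of 165 were past 2-fold, beside 2.01% of all genes there, and the median was 0.09. The symbols searched cover part of the transcription factor families, so genes such as TCP12 and yab14 are not among the 11. The next largest difference on chromosome 10 was that of MADS34 (GRMZM2G137510), with 2.74 FPKM in wild type against 1.74 in hda108, while bHLH172 (GRMZM2G093744) had 23.2 and 23.5 FPKM. Light harvesting symbols matched 1 compared gene, lhcb6 (-0.18), and receptor kinase symbols matched cr4 (0.09) and serk1 (0.37). The disease resistance pattern matched rpp2a-4 alone (-0.02), which is named as an acidic ribosomal protein and not as a resistance gene. Cytochrome P450, glutathione transferase and heat shock symbols matched 0 compared genes here.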

How the data were processed

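The labels describe 6 libraries, 3 per genotype. The deposited table holds FPKM values made by the authors, 1 per gene and genotype, with loci in B73 RefGen_v3 coordinates. The tools given in the submitters' processing notes are TopHat2 2.0.13, Cuffdiff 2.2.1, Cufflinks, SAMtools, Trimmomatic 0.33 and CASAVA 1.8, without role or settings, so scaling between libraries and the division of reads among similar genes are unknown. The column labelled homo was taken as the homozygous hda108 pool. With pooled values, limma, planned for replicate columns, could not be run.

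Members, lists and rules were chosen with earlier results of these data known. Genes were placed by locus start in 10 Mb bins (at least 20 compared genes), windows of 100 genes, groups (at least 3 genes past 2-fold, chained within 10 places) and runs (at least 2 adjacent genes past 1.5-fold in 1 direction). Names came from a RefSeq table of Zm-B73-REFERENCE-NAM-5.0, which served only to name genes: 947 of 1370 identifiers had 1 entry and 22 had several. Named were the largest differences, genes past 2-fold, group and run members and a list of known loci. No sequence is shown, and 1 gene of the lists is not reported here. Alternatives covered pseudocount, filters, scaling, bins, windows and chaining. The software was pandas 2.3.3, numpy 2.4.6, matplotlib 3.10.9 and scipy 1.17.1 under Python 3.11.15.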

Additional observations from a re-analysis of the deposited data

Results flagged for a closer look

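Signal in values left out of the comparison was listed for 3 genes of chromosome 10 with 0 FPKM in wild type but at least 1 FPKM in hda108. GRMZM2G455413 (100034178 to 100035006) had 2764 FPKM in hda108, above every compared gene of this chromosome. GRMZM5G834001 had 4.57 FPKM and GRMZM2G568537 had 1.47 FPKM. Such a 0 may stand for an estimate that failed, so absence of the transcript is not shown. The reverse, 0 in hda108 and at least 1 FPKM in wild type, was found for 0 genes of this chromosome. With GRMZM2G455413 included, the values of all listed genes of chromosome 10 had a sum of 25853 FPKM in wild type against 28859 in hda108, and those of the compared genes 25670 and 25888 FPKM.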

How the results depend on the processing

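No paired analysis was possible because each genotype has a single pooled column; leaving out replicates was not possible either. Of 56 values recomputed for the 5 main results, 48 stayed within 1.5 times (counts) or within 95% binomial intervals over genes, which are not replicates. These intervals are wide, from 3.46% to 19.0% for the highest bin and from 4.20% to 16.4% for the highest window. A highest window of 5% or a highest bin at another place therefore counted as kept, so the 48 values do not show stability. The count of 32 genes past 2-fold was 14 among genes averaging at least 5 FPKM and 8 when loci under 1000 bp were also left out; fewer genes were compared (900 and 849). It was 41 with a pseudocount of 0.1 (25 higher, 16 lower) and 23 with 1 (16 higher, 7 lower). The balance of directions, 19 higher and 13 lower as reported, thus depended on the pseudocount. The median of 0.05 became -0.014 with the overall median set to 0, -0.0097 with quantile normalization and 0.0024 with upper-quartile scaling, which shift all genes. The group count of 1 became 2 with no filter, in genes averaging 5 FPKM or more, and with chaining within 20 places. Without the 5 genes of the group, a choice made after seeing the data, the highest window held 5%, below the 9% reported, and the highest bin (7.69%) was that from 50 to 60 Mb; without shared locus entries that bin also led (9.09%). For 62 single genes, 501 of 521 values kept their side of the 2-fold limit, 12 fell inside it and 8 passed it. A filter leaves the difference of a gene as it was, so values under the filters could not move. These were 62 with no filter on low values and 33 with a mean of at least 5 FPKM. Without shared locus entries there were 59, and without loci under 400 bp 57. Under the 3 scalings, orp2 and GRMZM2G022359, both near 0, changed sign (6 values); 0 genes past the limit did. The unknown depth and the pooled values set the limit: the spread between plants cannot be given.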
